A study of Mus musculus with 24 samples.

Results

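The regions described here are 5 windows of the mouse genome, on chromosomes 1, 5 and 7, in which peaks of accessible chromatin called in C GC B cells against WT were dense. They were chosen by the share of their peaks called in that comparison, so the change in C at these peaks is a description of the choice and not a finding. A peak was a member if it started between 85000001 and 90000000 or between 130000001 and 135000000 on chromosome 1, between 60000001 and 65000000 or between 110000001 and 115000000 on chromosome 5, or between 100000001 and 110000000 on chromosome 7 (GRCm38, mm10). The rule found 1196 of the 65483 peaks of the series, 265 and 288 in the windows of chromosome 1, 98 and 218 in those of chromosome 5, and 327 on chromosome 7. Because the chromosome 7 window is longer than the others, its first and last 5 Mb are described apart, with 227 and 100 members.

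Splenic GC B cells were sorted from mice 10 days after immunization with sheep red blood cells (SRBC) for ATAC-seq, an assay in which a transposase inserts sequencing adapters into open DNA. There were 4 mice each of WT, C and K and 5 of CK, with 1 library per mouse, and p-values here measure the spread between these mice. All of them, WT included, carried 1 Cg1Cre allele, a Cre recombinase expressed from the immunoglobulin Cγ1 locus and active once B cells enter the GC reaction. C mice also carried 1 floxed Crebbp allele, K mice 1 floxed Kmt2d allele, and CK mice both, so the deletions are heterozygous and limited to cells that expressed Cre. The animals were described as 8-week-old females on a C57BL/6J background, whereas the sample labels give no age or sex.

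Depth ranged from 17483706 to 21857738 fragments in peaks per library. Peaks lay over the TSS of all 9 marker genes of GC and B cells examined, with median levels of 24.9 to 147 CPM (counts scaled to library size), and of 3 plasma cell markers, whereas the 5 T cell markers had no peak and 1 of 4 myeloid markers (Spi1, also a B cell gene) had one. Against the stated sex, 9 libraries had 56.5 to 62.2 CPM at 4 Y-linked genes and the other 8 had at most 0.0566 CPM, and both kinds occurred in every genotype. WT replicates 1 and 2, C replicates 1 and 2, K replicates 1, 3 and 4 and CK replicates 1 and 4 had the signal. Results that rest on these libraries are given below with and without them, except for K, where replicate 2 alone lacked the signal. Summed over all peaks on Y, which include repeats, the level was 249 to 573 CPM in WT and 545 to 1006 CPM in C. No peak over Crebbp or Kmt2d was called in any genotype, so these genes could not serve to check the labels.

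CREBBP is a histone acetyltransferase that marks active enhancers, and KMT2D is a methyltransferase that places the monomethyl mark of enhancers on histone H3 lysine 4. In GC B cells both act at enhancers of genes needed to leave the GC, and both genes are often mutated in lymphomas of GC origin. ATAC-seq reads the accessibility of such enhancers and of promoters, as the count of fragments in a peak. It does not read the histone marks themselves.

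The sequences below are the central 200 bases of the members that carry the patterns described further on, 1 or more from each window. They are from the plus strand of the RefSeq GRCm38.p6 genome, written 5′ to 3′. Capitals mark matches, on either strand, to 8 short motifs of factors known in B cells: ETS core GGAAGT, octamer ATGCAAAT, AP-1 TGANTCA, STAT TTCNNNGAA, IRF GAAANNGAA, RUNX TGTGGT, CTCF core AGGNGGC and E-box CAGGTG. Sequences with no capitals held none of these letters in this stretch.
Mroh2a intron, chr1:88253106-88253305: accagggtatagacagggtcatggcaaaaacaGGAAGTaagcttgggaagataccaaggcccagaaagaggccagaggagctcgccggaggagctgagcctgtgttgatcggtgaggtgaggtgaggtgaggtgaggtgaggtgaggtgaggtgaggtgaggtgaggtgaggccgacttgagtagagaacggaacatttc
Cntn2 TSS, chr1:132541867-132542066: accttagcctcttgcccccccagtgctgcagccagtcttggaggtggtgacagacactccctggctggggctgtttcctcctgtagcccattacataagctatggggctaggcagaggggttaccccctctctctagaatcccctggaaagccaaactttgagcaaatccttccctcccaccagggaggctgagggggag
upstream of 5830416I19Rik, chr5:64038270-64038469: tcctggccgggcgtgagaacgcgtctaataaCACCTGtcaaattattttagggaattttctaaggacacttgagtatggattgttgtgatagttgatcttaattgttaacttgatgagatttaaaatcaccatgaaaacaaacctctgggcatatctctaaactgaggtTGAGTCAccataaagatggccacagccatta
5830416I19Rik TSS, chr5:64045130-64045329: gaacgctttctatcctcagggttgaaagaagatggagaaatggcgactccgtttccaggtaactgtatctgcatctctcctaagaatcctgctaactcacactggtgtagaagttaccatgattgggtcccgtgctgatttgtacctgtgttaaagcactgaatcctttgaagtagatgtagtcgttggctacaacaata
Gm43094 TSS, chr5:113164926-113165125: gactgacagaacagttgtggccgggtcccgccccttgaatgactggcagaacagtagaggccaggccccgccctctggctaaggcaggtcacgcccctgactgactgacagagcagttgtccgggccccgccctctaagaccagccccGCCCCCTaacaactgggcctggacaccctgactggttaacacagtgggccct
near Trim5, chr7:104291362-104291561: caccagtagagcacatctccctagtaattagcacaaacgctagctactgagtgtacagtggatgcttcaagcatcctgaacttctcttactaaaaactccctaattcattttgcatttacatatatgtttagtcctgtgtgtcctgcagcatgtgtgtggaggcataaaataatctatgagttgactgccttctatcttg
The Mroh2a stretch held an ETS core match, the first 5830416I19Rik stretch an E-box match followed by an AP-1 match, and Gm43094 a CTCF core match. The Gm43094 peak lies 778 bases from that TSS, so its stretch is near the TSS and not over it.

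Peaks were called gained or lost where the p-value of the quasi-likelihood test in edgeR, adjusted by Benjamini-Hochberg over all 65483 peaks, was under 0.01. All 1196 members were tested, and 1008 of them had a mean of at least 1 CPM. In C, 32 members (2.68%) were called against 0.16% of all peaks, the excess by which the windows were chosen, with 3 gained (0.0596% of all peaks) and 29 lost (0.101%). They make up 30.5% of the peaks called in C anywhere, from 1.83% of the peaks. In K, 23 members were called (1.92%, against 1.48% of all peaks), with 4 gained (0.647% of all peaks) and 19 lost (0.828%). In CK, 123 members were called (10.3%, against 6.84%), with 42 gained (3.54% of all peaks) and 81 lost (3.3%). The K and CK contrasts use the same WT libraries as the rule, so these counts are descriptions too. Of the 32 members called in C, 27 were called in CK in the same direction and 9 were called in K. The 27 are 84.4% of the C list and 22% of the CK list. The 3 contrasts share the WT libraries, and this overlap was not counted over all peaks, so it is not shown to be particular to the windows. In all 130 members were called in at least 1 genotype (10.9%, against 7.07% of all peaks), and 84 of these in CK alone (64.6%, against 77.7% over all peaks).

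The share of members called differed between the windows. In CK, 14.3% of members were called in the first window of chromosome 1 and 14% in the last 5 Mb of chromosome 7, against 6.25% in the second window of chromosome 1. The median log2 fold change of the first window of chromosome 1 was -0.10 in C, -0.10 in K and -0.12 in CK, beside -0.000259, 0.00150 and 0.00290 over all peaks. The fragments in this window made up 0.505% to 0.539% of the library in WT, 0.466% to 0.480% in C, 0.467% to 0.507% in K and 0.448% to 0.493% in CK. K replicate 4 lay inside the WT range and the other mutant libraries below it. Across the windows, all 4 WT libraries lay above the other 13 at 35 members (0.577% of all peaks did so) and below them at 9 (0.667% of all peaks), and 15 of the 35 were in the first window of chromosome 1.

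**Figure D1:**
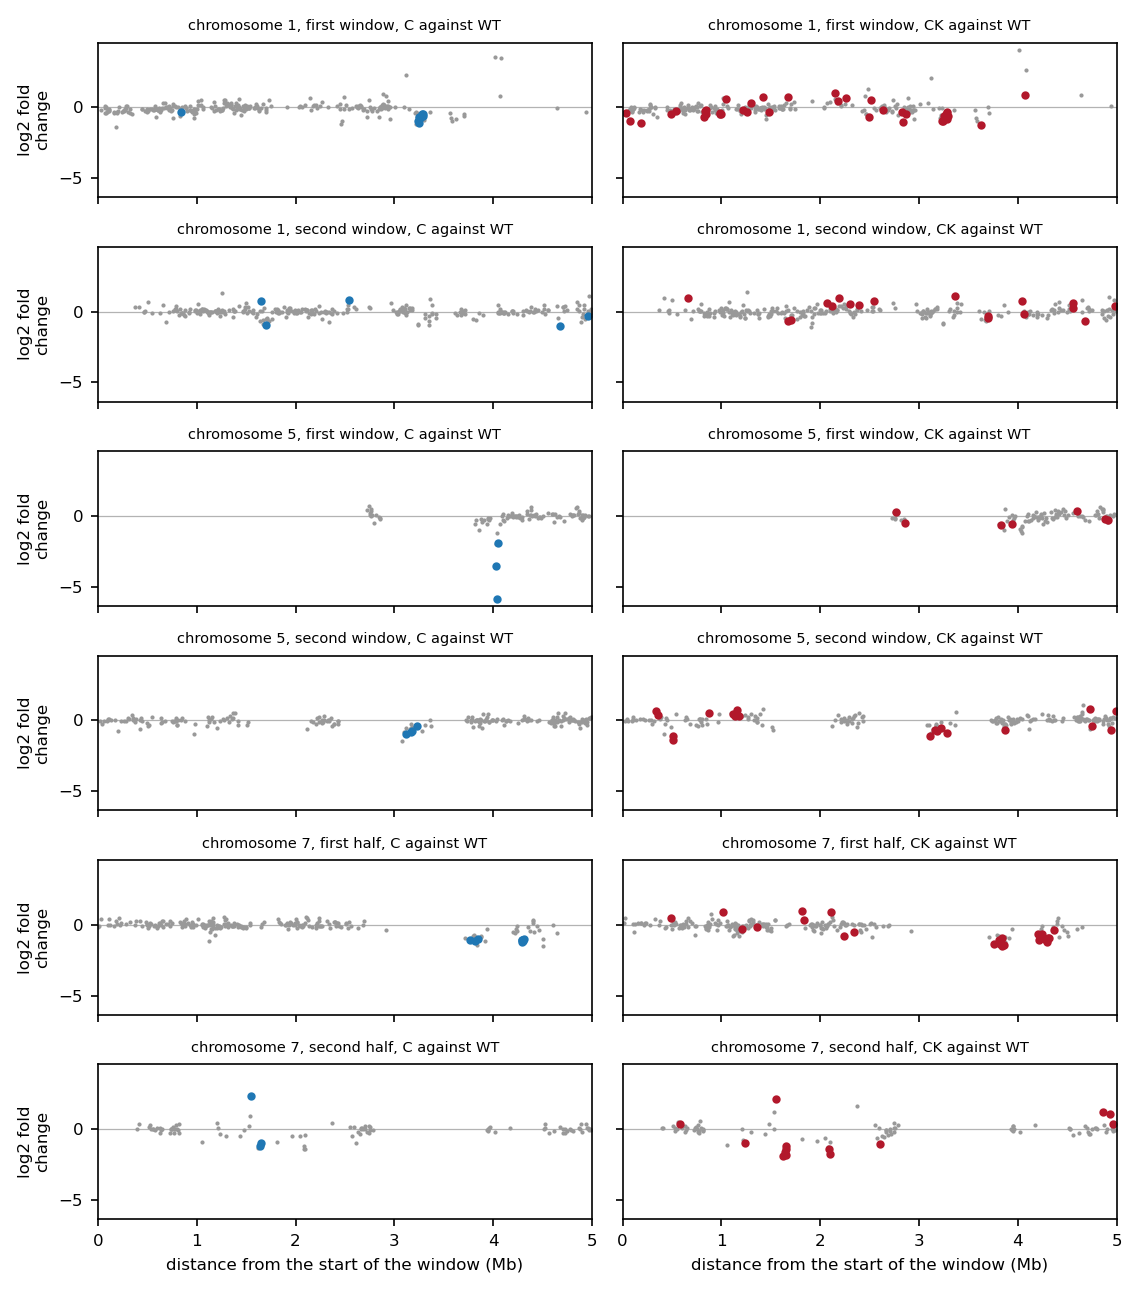
Log2 fold change of each member (y axis) by its distance in Mb from the start of its window (x axis), in C (left) and CK (right) against WT. Coloured points are called at an adjusted p under 0.01. Called members of C sit in tight groups except in the second window of chromosome 1, and 8 of the 9 in its first window are neighbours. Those of CK, 123 against 32 in C, are spread over each window.

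In the first window of chromosome 1, 8 consecutive peaks from Mroh2a over Hjurp to Trpm8 (chr1:88235349-88290561) were lost in C and CK, and 6 of them in K. Hjurp encodes the chaperone that loads the centromeric histone CENP-A, and Trpm8 encodes an ion channel that senses cold. At the Hjurp TSS (chr1:88276572-88278094) the level was 169, 170, 166 and 173 CPM in the WT mice. It was 122, 125, 117 and 124 CPM in C, 119, 120, 121 and 125 CPM in K, and 114, 122, 115.3, 120 and 132 CPM in CK. The highest mutant library, CK replicate 5, stayed below the lowest WT library. The log2 fold change was -0.48 ± 0.04 (SE) in C, -0.48 ± 0.04 in K (adjusted p = 5.7e-07) and -0.49 ± 0.04 in CK (adjusted p = 2.7e-07). Between CK and K the log2 fold change at this peak was -0.01 ± 0.04 (adjusted p = 0.99), which was no call.

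The Mroh2a peaks on the left of Hjurp were also lower in every mutant library, by larger factors. The intronic peak whose centre is printed above (chr1:88252544-88253867) had 189, 195, 185 and 201 CPM in WT and 121, 121, 115.4 and 126 CPM in C. In K it had 128, 126, 134.97 and 151 CPM, and in CK 123, 113, 120, 134.8 and 140 CPM. No mutant library reached the WT range. Its log2 fold change was -0.67 ± 0.06 in C, -0.51 ± 0.06 in K (adjusted p = 2.9e-05) and -0.61 ± 0.06 in CK (adjusted p = 4.3e-07). The largest change of the 8 in C was at an exonic Mroh2a peak (chr1:88246637-88248055), from 17.7 to 19.8 CPM in WT to 6.77 to 9.68 CPM in C, where K ranged from 7.54 to 13.7 CPM and CK from 7.24 to 13.1 CPM. K replicate 4 and CK replicate 5 were the highest mutant libraries at this peak. On the right, the intronic Trpm8 peak at chr1:88283408-88285152 fell from 55.8 to 66.9 CPM in WT to 30.9 to 38.6 CPM in CK (log2 fold change -0.82 ± 0.07, adjusted p = 4.3e-07).

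The peaks beside the stretch were small. On the left, the next Mroh2a peak at chr1:88229481-88230216 had 1.15 to 1.72 CPM in WT and 1.14 to 1.59 CPM in CK and was called in no genotype. The Mroh2a peak before that one had 2.49 to 3.03 CPM in WT and at most 2.46 CPM in all 13 mutant libraries. On the right, the Trpm8 peak at chr1:88301380-88302057 had 1.88 to 2.30 CPM in WT, 0.956 to 1.31 CPM in C and 1.05 to 1.30 CPM in K, where it was called (log2 fold change -0.79 ± 0.18, adjusted p = 0.0098). All C and K libraries were thus below WT at this peak too, whereas CK, at 1.43 to 2.13 CPM, overlapped WT. The Trpm8 peak after it (chr1:88357562-88357895) was called in none. The other member called in C in this window lay in an intron of Cab39, the scaffold of the LKB1 kinase (chr1:85840064-85841145), with 43.0 to 45.1 CPM in WT and 31.9 to 36.5 CPM in C.

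**Figure D2:**
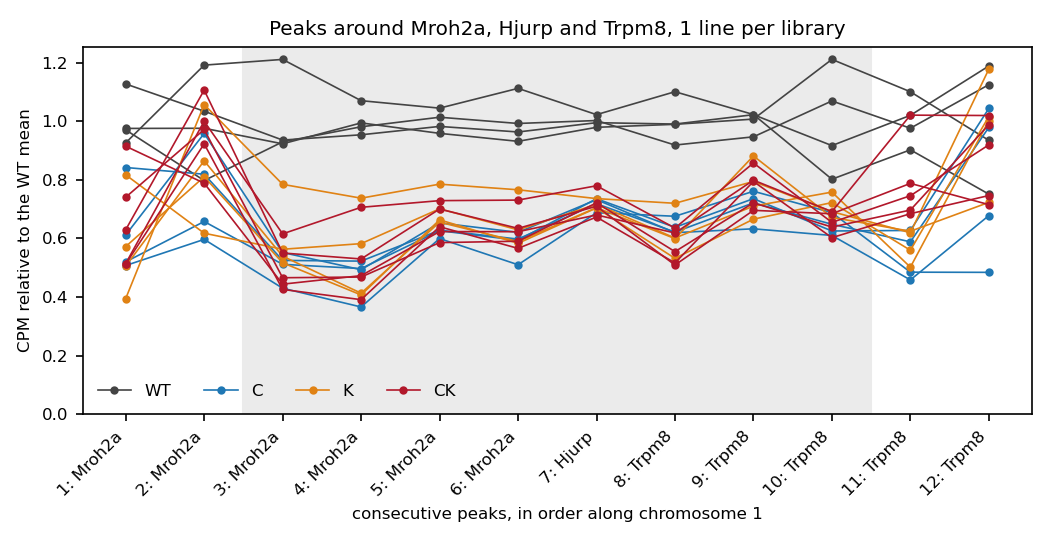
CPM relative to the WT mean (y axis) at consecutive peaks from Mroh2a to Trpm8 in order along chromosome 1 (x axis), with 1 line per library coloured by genotype and the 8 peaks inside the stretch on grey. Inside it every WT line runs above all 13 mutant lines, as at the first peak drawn, and at the first peak to the right the C and K lines, but not all CK lines, are below WT.

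The first window of chromosome 5 held a stretch in which CK mice fell on both sides. It lay upstream of and over the TSS of 5830416I19Rik, a long noncoding RNA gene, between the genes Rell1 and Pgm2, and 4 consecutive peaks (chr5:64029339-64045597) shared 1 pattern. At the first (chr5:64029339-64031039), WT mice had 14.4, 8.72, 16.2 and 8.86 CPM and C mice 1.04, 0.812, 1.21 and 1.01 CPM. K mice had 14.6, 8.38, 15.3 and 16.7 CPM. CK replicates 1, 2 and 3 had 0.788, 1.29 and 1.14 CPM, within or close to the C range, whereas CK replicates 4 and 5 had 14 and 12 CPM, within the WT and K range. No CK library lay between 1.29 and 12 CPM.

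The second peak (chr5:64037989-64038750) was close to absent on the low side. The fragments counted there were 107, 59, 136 and 55 in WT and 3, 2, 0 and 1 in C. They were 69 to 126 in K and 4, 3, 1, 89 and 93 in CK. With so few fragments in C the fitted fold change depends on the prior count, so none is given. The third peak (chr5:64040346-64041472), the most accessible of the 4, had 29.4 to 43.4 CPM in WT, 15.1 to 18.8 CPM in C and 28.7 to 38.4 CPM in K. It had 13.7, 13.4 and 13.9 CPM in CK replicates 1 to 3 and 31.5 and 36.9 CPM in CK replicates 4 and 5. At the TSS (chr5:64044862-64045597) the range was 4.86 to 6.92 CPM in WT, 1.26 to 1.80 CPM in C, 4.13 to 7.96 CPM in K, 1.85 to 2.02 CPM in CK replicates 1 to 3 and 5.70 to 6.33 CPM in CK replicates 4 and 5. On the high side WT replicates 2 and 4 and K replicate 2 were the lowest libraries at the first, second and TSS peaks.

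Neither contrast of CK called these peaks. At the TSS, the log2 fold change of CK was -0.73 ± 0.27 against WT (adjusted p = 0.069) and -0.82 ± 0.27 against K (adjusted p = 0.42), with CK at 3.57 ± 2.25 CPM (SD, n = 5) and K at 6.22 ± 1.58 CPM (SD, n = 4). The widest gap between neighbouring libraries in the order of log2 CPM was 2.61, 3.40, 0.60 and 1.00 at the 4 peaks in order. Beside them, a small peak before them (chr5:64024556-64024860) was 0.152 to 0.425 CPM in C and 0.992 to 1.64 CPM in WT, with CK between 0.197 and 1.27 CPM. The Rell1 TSS had 97.0 to 107 CPM in WT and 89.3 to 108 CPM in CK, and the Pgm2 TSS 26.5 to 28.5 CPM and 24.1 to 31.1 CPM. Neither was called in any genotype.

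**Figure D3:**
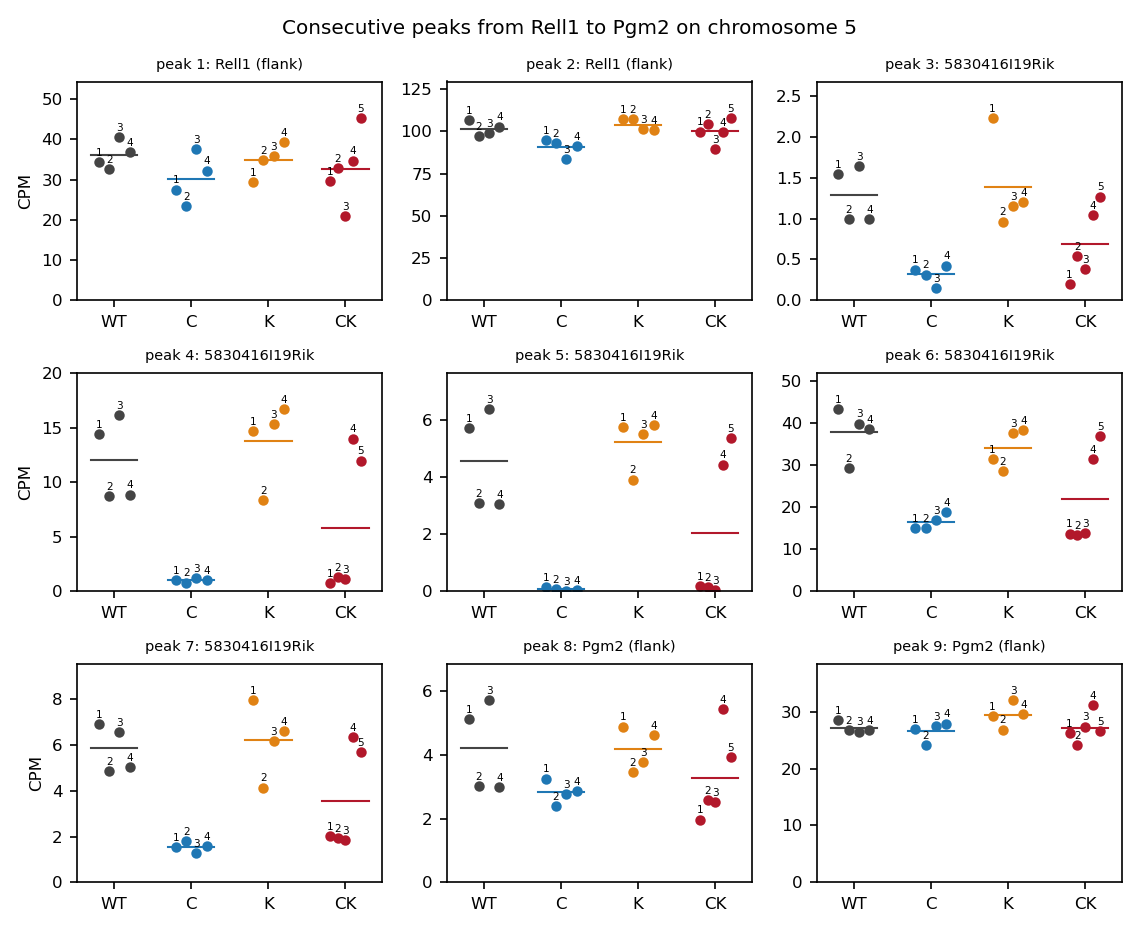
CPM (y axis, from 0) of 9 consecutive peaks from Rell1 to Pgm2 on chromosome 5 in WT, C, K and CK mice. Each point is 1 library with its replicate number and lines are genotype means. In the 4 peaks of the stretch CK replicates 1 to 3 sit with C and CK replicates 4 and 5 with WT and K.

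Members with the same arrangement of libraries were found in the second window of chromosome 1 too. To describe it, each peak with a mean of at least 1 CPM was divided at its widest gap in log2 CPM, where this was at least 0.4 and left at least 2 libraries on each side, a definition made after the values were seen. WT, K and CK replicates 4 and 5 on one side with C and CK replicates 1 to 3 on the other was the arrangement of 9 peaks of 65483, and all 9 were members. The arrangement sets C apart from WT, so its presence in windows chosen by C is partly fixed by the choice, whereas the place of the K and CK libraries in it is not. Besides the 4 on chromosome 5, these were peaks in Ctse, Rab7b, Syt2 and Ube2t and near Nuak2 on chromosome 1, 5 of the 192 members over 3317 kb (chr1:131652431-134969107). Unlike on chromosome 5 they were not neighbours. Ctse encodes cathepsin E, an aspartic protease of endosomes, Rab7b a small GTPase of late endosomes, Nuak2 a kinase related to AMPK, Syt2 a calcium sensor of vesicle release and Ube2t the ubiquitin-conjugating enzyme of the Fanconi anaemia pathway.

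Direction varied among these 5. The intronic Syt2 peak (chr1:134679303-134680159) was low in C, with 20, 20, 19.9 and 22.8 CPM in WT, 9.96, 9.83, 11.4 and 10.5 CPM in C and 16.2, 20.4, 17.6 and 18.9 CPM in K. In CK it had 9.40, 8.99 and 11.7 CPM in replicates 1 to 3 and 18 and 16.8 CPM in replicates 4 and 5. Rab7b (9.52 to 11.2 CPM in WT, 5.19 to 5.81 CPM in C) and Nuak2 (13.8 to 18.7 CPM in WT, 8.66 to 9.81 CPM in C) had the same direction. The intronic Ctse peak (chr1:131652431-131653632) had the opposite one, with 11.9, 12.2, 13.2 and 13.2 CPM in WT, 20.7, 18.4, 24.0 and 23.2 CPM in C, and 11, 9.51, 10.5 and 12.4 CPM in K. CK replicates 1 to 3 had 20, 19.8 and 18.9 CPM there, against 12.4 and 13.1 CPM in CK replicates 4 and 5. The intronic Ube2t peak had 1.86 to 2.77 CPM in WT and 4.38 to 5.24 CPM in C, with 1.79 and 2.77 CPM in CK replicates 4 and 5.

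The Cntn2 TSS in this window (chr1:132540809-132543124) was gained in C and CK. Cntn2 encodes a cell adhesion protein of neurons. It had 8.67, 7.99, 8.48 and 7.31 CPM in WT, 15.2, 15, 14.1 and 13.2 CPM in C, 9.76, 8.49, 8.58 and 10.8 CPM in K and 16, 14.9, 14.6, 10.3 and 11.3 CPM in CK. CK replicates 4 and 5 were again the lowest of CK, with replicate 4 inside the K range. Its log2 fold change was 0.82 ± 0.12 in C, 0.73 ± 0.12 in CK (adjusted p = 0.00019) and 0.21 ± 0.12 in K (adjusted p = 0.35).

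On chromosome 7 the K mice were divided instead. WT and K replicates 1 and 2 on one side with C, all CK and K replicates 3 and 4 on the other was the arrangement of 13 peaks, and 11 of them were members, 9 of the 25 between chr7:103761925 and 104316125 and 2 of the 5 between chr7:106550810 and 106654672. The remaining pair were peaks of Ston2 on chromosome 12 and Gm45734 on chromosome 8. This arrangement too sets C apart from WT, so its presence among members is partly fixed by the choice of windows. The place of the K and CK libraries in it is not. The first stretch held genes of the beta-globin cluster, olfactory receptor genes and the Trim5 and Trim12a genes, mouse relatives of the retroviral restriction factor TRIM5. These are multigene families, so reads may be divided among near-identical copies and single peaks are uncertain.

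The peak between Trim5 and Trim12a (chr7:104290663-104292259) had 56.9, 51.0, 51.7 and 58.8 CPM in WT and 22.1, 21.9, 23.4 and 28.1 CPM in C. In K it had 48.7 and 45.6 CPM in replicates 1 and 2 but 27.1 and 26.2 CPM in replicates 3 and 4. CK had 25.3, 23.6, 23.7, 21.7 and 23.9 CPM, all below every WT library. The log2 fold change was -1.2 ± 0.14 in C, -1.21 ± 0.13 in CK (adjusted p = 3.1e-06) and -0.57 ± 0.13 in K (adjusted p = 0.012), the last a mean over 2 levels. The Trim5 TSS (chr7:104287546-104288704) had 24.5 to 28.7 CPM in WT, 11.4 to 12.9 CPM in C and 11.3 to 13.7 CPM in CK, with 24.1 and 25.7 CPM in K replicates 1 and 2 and 14.3 and 14.5 CPM in K replicates 3 and 4. A Trim12a TSS peak (chr7:104314404-104316125) had 35.2 to 42.4 CPM in WT and 18.8 to 19.9 CPM in C, with 35.8 and 37.9 CPM in K replicates 1 and 2 and 19.1 and 18.9 CPM in K replicates 3 and 4. The nearest promoters on either side were called in no genotype. The Trim34a TSS had 24.6 to 26.9 CPM in WT and 22.9 to 25 CPM in C, and the Trim12c TSS 48.7 to 52.2 and 42.5 to 48.0 CPM. Farther out, the TSS of Trim6 and Trim30b were lost in CK (edgeR adjusted p = 0.0045 and 0.0093), as was a peak near Trim34a (adjusted p = 0.00018). The Trim6 TSS had 2.02 and 2.21 CPM in K replicates 1 and 2, and 1.15 and 0.692 CPM in K replicates 3 and 4. The Trim30b TSS had 12.7 and 14.5 CPM, and 10.2 and 9.27 CPM, in the same libraries.

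At the TSS of Hbb-bt, an adult beta-globin gene (chr7:103812095-103814072), WT had 21.1, 20.3, 18.4 and 21.3 CPM and C 8.97, 9.02, 7.73 and 11.6 CPM. K had 17.4 and 17.7 CPM in replicates 1 and 2 and 9.84 and 9.14 CPM in replicates 3 and 4, and CK had 8.64 to 10.4 CPM. The peak near Hbb-y, an embryonic globin gene (chr7:103860751-103862116), had 3.83 to 5.04 CPM in WT, 1.85 to 2.22 CPM in C, 3.93 and 3.74 CPM in K replicates 1 and 2 and 1.31 and 1.71 CPM in K replicates 3 and 4. Klf1, the erythroid transcription factor, had close mean levels in the 4 genotypes, 46.9 CPM in WT against 46.8 in C, 49.7 in K and 48.1 in CK. At Hbb-bh1, another embryonic globin gene, the K mice were not divided: 3.66 to 5.87 CPM in WT stood above 2.25 to 3.11 CPM in K and 1.53 to 2.88 CPM in CK.

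In the last 5 Mb of the chromosome 7 window, the peak near the pseudogene Gm8995 (chr7:106550810-106551895) was the 1 member of the 11 that was higher in C. It had 0.905, 0.992, 0.703 and 1.11 CPM in WT, 4.06, 3.74, 5.81 and 4.94 CPM in C and 3.45, 4.74, 4.31, 3.79 and 3.80 CPM in CK. K replicates 1 and 2 had 0.849 and 1.02 CPM and K replicates 3 and 4 had 4.03 and 3.83 CPM. It changed by a log2 fold of 2.32 ± 0.33 in C and 2.12 ± 0.33 in CK (adjusted p = 0.00013). Further along, 2 peaks near the olfactory receptor gene Olfr693 were lost in all 3 genotypes. At chr7:106651541-106653297, WT had 10.2, 10.6, 8.62 and 12.1 CPM, C 4.56 to 5.56, K 5.78, 7.36, 4.92 and 3.6, and CK 3.69 to 5.40 CPM. Here K replicates 1 and 2 lay between the WT range and the others. The log2 fold change was -1.01 ± 0.16 in C, -0.95 ± 0.16 in K (adjusted p = 0.0012) and -1.22 ± 0.15 in CK (adjusted p = 1.4e-05).

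**Figure D4:**
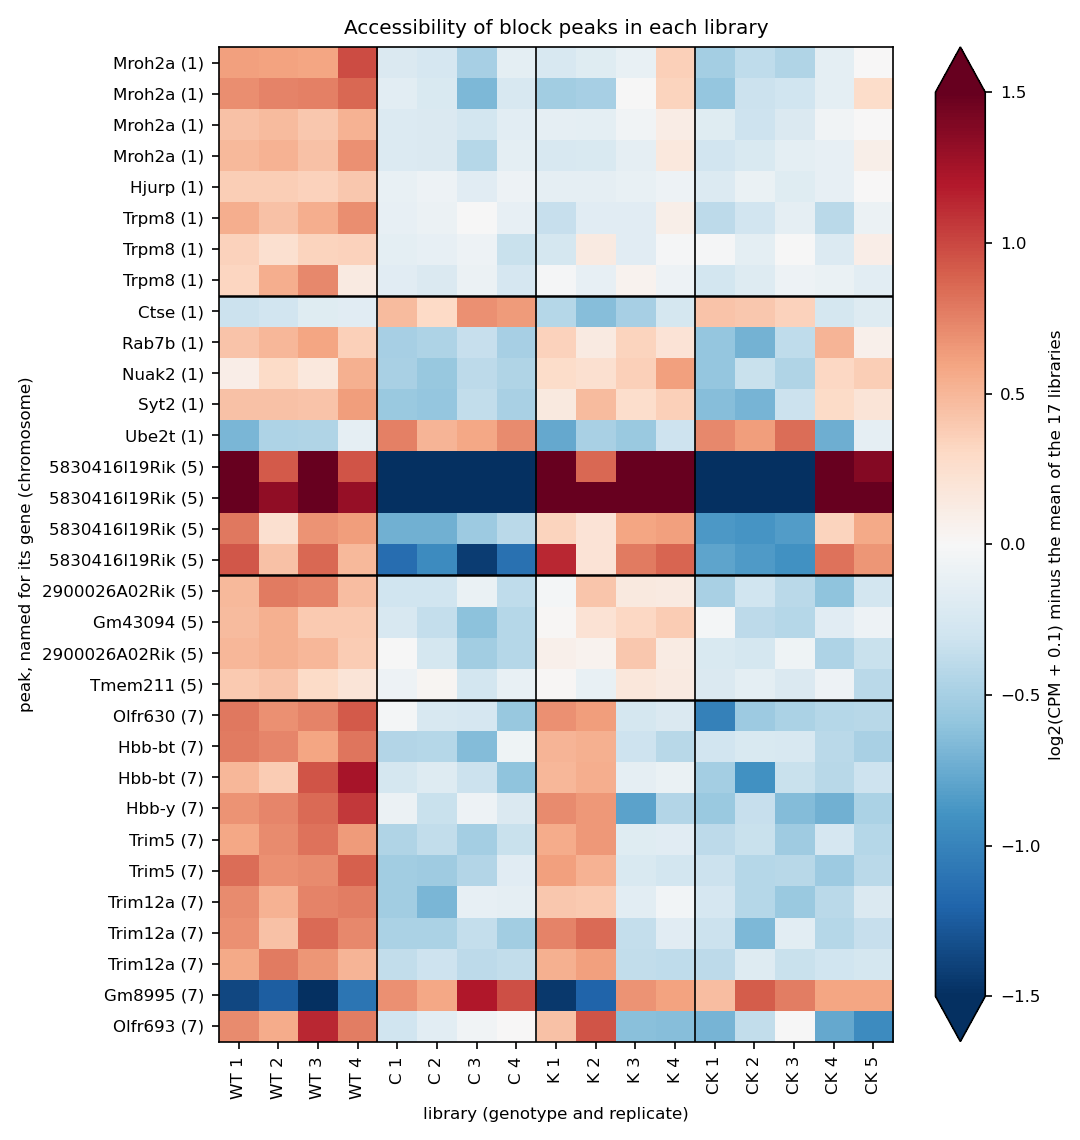
Log2 of CPM plus 0.1, minus the mean of the 17 libraries (colour, saturating at 1.5 either way), for members (y axis, by gene and chromosome) in each library (x axis). From the top, the groups are Mroh2a to Trpm8 with WT high, the peaks of chromosomes 1 and 5 where CK 4 and 5 stand with WT and K, the 2900026A02Rik region, and chromosome 7, where K 1 and 2 stand with WT.

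The second window of chromosome 5 had its lost peaks of C in and around 2900026A02Rik. A peak 778 bases from the TSS of Gm43094, a predicted gene inside it (chr5:113164595-113165456), had 20.3, 21.1, 19.2 and 19.2 CPM in WT and 12.4, 11.3, 9.45 and 10.8 CPM in C. It had 14.8, 17, 18.2 and 19.1 CPM in K and 14.3, 11.1, 10.8, 13 and 13.9 CPM in CK. Every CK library lay below every K library here, and the highest K library was just below the WT range. The log2 fold change of CK was -0.66 ± 0.09 against WT (adjusted p = 5.6e-05) and -0.45 ± 0.10 against K (adjusted p = 0.089). An intronic peak (chr5:113180086-113181811) had 10.2 to 11.3 CPM in WT, 5.41 to 7.74 CPM in C, 8.04 to 10.3 CPM in K and 5.63 to 7.43 CPM in CK. The TSS of Tmem211 nearby had 25.6 to 30.2 CPM in WT, 20.6 to 25.1 CPM in K and 16.8 to 21.2 CPM in CK. Of the peaks between these, the 2900026A02Rik peak at chr5:113169801-113170408 had 5.54 to 6.84 CPM in WT and 4.36 to 5.82 CPM in CK and was called in no genotype.

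CK against K is the comparison in which neither group entered the rule. No member was called by edgeR at an adjusted p under 0.01, beside 0.00916% of all peaks. At an unadjusted p under 0.05 there were 119 members, 9.95% of them, and 4814 peaks in all, 7.35%. DESeq2 called 3 members, in Ctse, at Gm43094 and at the Trim5 TSS, and 36 peaks in all. In edgeR the log2 fold change of CK against K was 0.63 ± 0.13 at Ctse (adjusted p = 0.067), -0.45 ± 0.10 at Gm43094 (adjusted p = 0.089) and -0.65 ± 0.13 at the Trim5 TSS (adjusted p = 0.066). At Ctse, CK replicates 4 and 5 (12.4 and 13.1 CPM) were at or just above the highest K library (12.4 CPM), and at Trim5 the CK libraries were all below the lowest K library. The median over members was -0.02, against 0.00192 over all peaks.

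Over the members as a whole, mice of 1 genotype differed about as much as at other peaks. The median SD of log2 CPM within genotypes was 0.208 over members and 0.199 over all peaks, and the median correlation of neighbouring peaks across libraries, with genotype means removed, was 0.130 and 0.129. In runs of 30 consecutive peaks the first principal component took a median of 27.7% of the variance in the 43 runs of members and 27.7% in the 2173 runs of all peaks. The runs of members with the highest shares held the stretches above. The 95th percentile of all runs was 43.6%. The run around 5830416I19Rik (chr5:62723502-64070669) had 65.8%, at percentile 98.8 of all runs, with CK replicates 4 and 5 at one end and CK replicates 1 to 3 at the other. Peaks were not scaled to equal spread, so those that varied most weigh most. The first, second and TSS peaks of that stretch had SDs within genotypes of 1.12, 1.42 and 0.541. The share of this run thus restates in large part the peaks described above. The run from the beta-globin to the Trim genes (chr7:103840628-104647365) had 47.2%, at percentile 96.4, with K replicates 1 and 2 opposite K replicates 3 and 4. The run that holds Nuak2 and Cntn2 (chr1:132289665-133047226) had 42.2%, at percentile 94.2. It had CK replicate 5 at one end and CK replicates 1 and 2 at the other. In the last 5 Mb of chromosome 7 the highest run had 27.1%, below the median of all runs. These are descriptions over peaks that share libraries and depth.

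**Figure D5:**
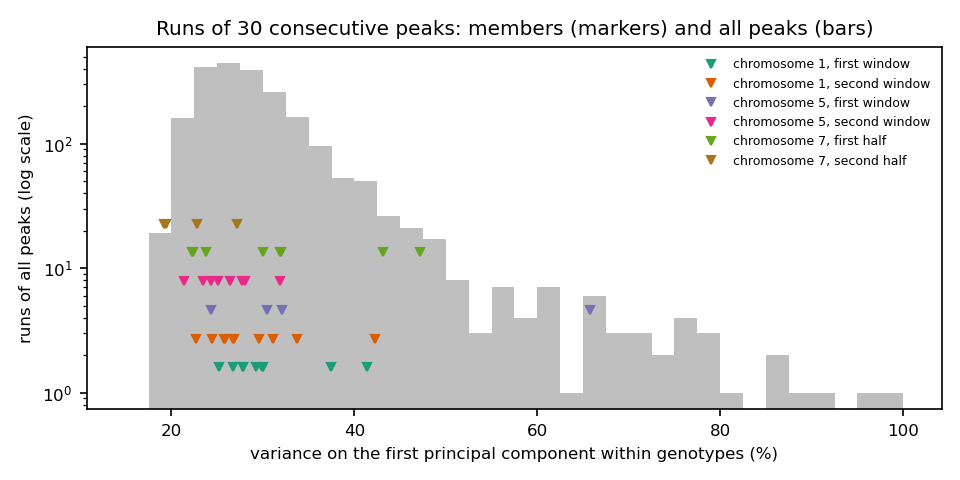
Share of variance within genotypes on the first principal component (x axis, %) in runs of 30 consecutive peaks. Bars count the runs of all peaks (y axis, log scale) and markers are runs of members, whose height has no meaning. The run on chromosome 5 at 65.8% stands far to the right of the other members.

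Taking any arrangement of libraries with such a gap, 33 members (2.76%) and 947 of all peaks (1.45%) had one. Besides the 20 above, 13 members had other arrangements. At the TSS of Sh3bp4, a gene of endocytosis, WT replicates 3 and 4 (7.40 and 6.53 CPM) lay below the other libraries, at 12 to 21.9 CPM. By these limits, an arrangement of WT alone against the rest was found at 0 members and 7 other peaks. Members at which all WT libraries lay apart, such as the Hjurp TSS, did not meet them. Among the 7 was a peak in Ptprv at chr1:135121365-135122102, just past the end of the second chromosome 1 window. This peak had 2.55 to 3.65 CPM in WT and at most 1.38 CPM elsewhere. Neither arrangement shared by several members followed the Y-linked signal, since K replicate 1 had the signal and K replicate 2 did not, and CK replicate 4 had it and CK replicate 5 did not.

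The peaks on either side of the window borders were also examined. Just outside the second chromosome 5 window, the TSS of Zfp932, a zinc finger gene (chr5:109995625-109997470), had 38.6 to 43.4 CPM in WT, 36.6 to 40.0 CPM in C and 35.2, 38.5 and 37.7 CPM in CK replicates 1 to 3. K had 19.7 to 23 CPM and CK replicates 4 and 5 had 19.7 and 20.9 CPM, so that CK replicates 1 to 3 were divided from 4 and 5 here too, outside the windows. In K the log2 fold change was -0.91 ± 0.14 (adjusted p = 0.00081). The first member inside had 2.51 to 2.93 CPM in WT and 1.96 to 2.78 CPM in K. Of the other border members, the first of the first chromosome 1 window, in C130026I21Rik, was called in CK (11.5 to 12.5 CPM in WT, 6.79 to 10.0 in CK) and the last of the second chromosome 5 window, in Hnf1aos1, was gained in CK (2.30 to 2.86 CPM in WT, 3.00 to 5.65 in CK). The remaining border peaks were called in no genotype.

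Some members were named for their spread between mice alone. A peak near Snorc (chr1:87459542-87460316) ranged from 1.10 to 4.43 CPM in K and from 1.77 to 4.09 CPM in CK, a peak in Ppp1r12b from 1.42 to 4.65 CPM in C, and a peak near Gm10537 from 0.521 to 3.05 CPM in CK. Peaks near Gm7281, in Sez6l and in Gltp had at most 2.62 CPM in any library and were called in no genotype. A further group led their runs at very low levels, such as peaks of Ugt1a10, 1700067G17Rik and Sh3bp4 with at most 0.805 CPM in any library, where a few fragments set the value. On chromosome 7, small peaks near Olfr243 (2.30 to 2.45 CPM in WT, 0.733 and 1.02 CPM in K replicates 3 and 4) and Hbb-bt (2.56 to 3.38 CPM in WT, 1.2 and 1.11 CPM in K replicates 3 and 4) had K replicates 1 and 2 with WT as at the larger peaks. In Trim30d, another gene of the Trim cluster, the TSS had 6.97 to 9.41 CPM in WT, 3.24 and 3.00 CPM in K replicates 3 and 4, and 5.57 and 9.34 CPM in K replicates 1 and 2.

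Genes of the windows with known roles were grouped in lists. Of 22 innate immunity genes, 20 had 54 peaks, of which 0 were gained and 4 lost in C (7.41%, against 0.16% of all peaks), none called in K (1.48% of all peaks) and 8 lost in CK (14.8%, against 6.84%). All 8 were at Trim genes, and none of the peaks at Sp100, Sp140, Ikbke, Tlr1, Tlr6 or the Oasl genes was called. A peak 3453 bases from a Trim12a TSS (chr7:104296382-104297581), also lost in C and CK, is not in these counts. Of 24 genes of B cell signalling and immunity, 23 had 112 peaks, with none called in C, 2 lost in K (1.79%), and 2 gained and 6 lost in CK (7.14%), shares near those of all peaks. In CK an intronic peak of Coro1c, an actin-binding coronin (chr5:113872123-113873226), was lost most, from 23.8 to 26.0 CPM in WT to 12.5 to 17.5 CPM in CK, with 16.1 to 18.1 CPM in K and 22.5 to 26.2 CPM in C. The log2 fold change was -0.72 ± 0.08 in CK (adjusted p = 5.7e-06) and -0.57 ± 0.08 in K (adjusted p = 0.00053), and the C libraries lay around the WT range. A peak in Stim1, the calcium sensor of the endoplasmic reticulum, fell from 14.2 to 16.4 CPM in WT to 9.90 to 12.2 CPM in CK, and a peak in Inpp5d, which encodes the phosphatase SHIP1, from 81.3 to 97.1 to 72.2 to 77.8 CPM. The TSS of Inppl1, which encodes SHIP2, rose from 26.9 to 33.7 CPM in WT to 36.8 to 42.1 CPM in CK, and that of the nucleotide receptor P2ry2 from 1.66 to 3.57 to 3.86 to 6.06 CPM.

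Of 12 genes of genome maintenance and the cell cycle, 11 lay in the windows, with 38 peaks, and 2 were lost in C (the TSS of Hjurp and of Ube2t), 1 gained and 1 lost in K, and 2 gained and 1 lost in CK. These were 5.26% of the list in C and in K, against 0.16% and 1.48% of all peaks. In CK they were 7.89%, near the 6.84% of all peaks. The shares of the lists in C follow in part from the choice of windows. Those in K and CK use the same WT libraries, and the lists were chosen with earlier results of these data known, so all are descriptions. Both gains in CK were at Kdm5b, a histone H3 lysine 4 demethylase, whose TSS peak rose from 8.34 to 12.7 CPM in WT to 13.1 to 16.5 CPM in CK (log2 fold change 0.61 ± 0.11, adjusted p = 0.00045) and in K to 13 to 16.3 CPM. The Ube2t TSS had 54.5 to 57.5 CPM in WT and 43.5 to 47.0 CPM in C, where CK replicates 1 to 3 had 50.5, 44.9 and 46.2 and CK replicates 4 and 5 55.5 and 51.8 CPM. Of 260 genes of other tissues, most of them olfactory receptor genes, 36 had 54 peaks. In C 1 was gained and 7 were lost (14.8%, against 2.68% of members and 0.16% of all peaks). In K 5 were lost (9.26%, against 1.92% of members and 1.48% of all peaks). In CK 1 was gained and 13 were lost (25.9%, against 10.3% of members and 6.84% of all peaks). The lost peaks lay at Trpm8, the globin genes, Ctse and olfactory receptor genes. Members called in C lay at each of these too, so the shares of this list in K and CK are not separate from the choice of windows. The median log2 fold change of this list was -0.33 for C, -0.18 for K and -0.24 for CK, beside -0.03, -0.03 and -0.04 over all members. No list had a peak called in CK against K.

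In sequence and position the members resembled other peaks. Their median length was 869 bp (910 over all peaks), their GC content 48.9% (48.2%), and 32.4% lay within 1 kb of a TSS (29.3%) and 57.4% within 5 kb (49.4%). Of the members gained in CK, 59.5% were TSS peaks by the 1 kb limit, with a median GC content of 59.7%, and of those lost 23.5%, with 45.5%. Over all peaks the same contrast gave 65.6% of gained and 16.6% of lost peaks near a TSS. In the central 200 bases, the IRF letters were found in 9.36% of members and 7.21% of all peaks, the ETS core in 18.6% and 18.95%, the E-box in 16.8% of both, the CTCF core in 18.8% and 19.2%, RUNX in 16.1% and 16%, AP-1 in 6.35% and 5.98%, STAT in 6.10% and 5.54% and the octamer in 2.84% and 2.86%. A match is a description of the letters and does not show binding.

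The counts of calls moved with the Y-linked signal and with single libraries. Among libraries with the signal alone, 11 members were called in C, 9 in K and 32 in CK. Among those without it 10 were called in C and 42 in CK, in each case from fewer mice. K replicate 2 was the only K library without the signal, so no count is given for K there. With presence of the signal as a covariate, 36, 23 and 143 were called. With the summed level of all peaks on Y as a covariate, which differs between WT and C, 0, 14 and 29 were called, and over all peaks 0, 495 and 705, fewer in each contrast than without it. The part of this signal in the results was not tested. Leaving out a single mouse gave 16 to 36 members called in C, 9 to 26 in K and at least 66 in CK (5.52% to 11.3% of members). In C the count fell to 17, 17, 20, 16, 19 and 17 without WT replicates 1 and 3 and C replicates 1, 2, 3 and 4. In K it fell to 11, 9, 9 and 14 without WT replicates 3 and 4 and K replicates 1 and 3, and in CK to 66 without WT replicate 4.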

How the data were processed

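The authors used the nf-core pipeline for ATAC-seq with mm10 and deposited raw counts of fragments per consensus peak from featureCounts 2.0.1 (fracOverlap 0.2), without normalization. The table had columns for the 17 GC B cell libraries, and 7 samples of sorted CB and CC were not analysed here. No library was dropped, and no peak fell under the minimum of 10 counts in all. Counts were fitted in edgeR 4.0.16 (R 4.3.3) with TMM factors, 1 coefficient per genotype and 17 libraries together, and p-values of quasi-likelihood F tests were adjusted by Benjamini-Hochberg over all peaks. SE is the log2 fold change divided by the square root of F. CPM use TMM library sizes, and log2 CPM a prior count of 2. Tables were made with Python 3.11.15, pandas 2.3.3, numpy 2.4.6 and matplotlib 3.10.9. DESeq2 1.42.0 was an alternative. Genes came from GENCODE M21, with a peak named for a TSS within 1 kb, otherwise the gene body, otherwise the nearest TSS.

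Peaks named were the 3 members of each window with the lowest p in C, the 2 with the largest spread, those called in CK against K, border peaks and the 3 leading each window's strongest run, 43 without the border peaks. Other peaks in the stretches and the arrangements of libraries were picked after their values were seen. The windows, members, motifs and gene lists were chosen with earlier results of these data known. Precision is limited by counting error and by 4 or 5 mice per genotype. Replicate numbers were not used as pairs. Covariates and subsets for Y-linked genes were added after seeing the data. Certain items are not reported here.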

Additional observations from a re-analysis of the deposited data

Results flagged for a closer look

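Among 136 groups of 4 or 5 mice at the named peaks, 5 values stood far from the rest of their genotype by Dixon's criterion, which chance gives in about 1 in 20 groups. CK replicate 5 had 4.09 CPM near Snorc, where the other CK mice had 1.77 to 2.24. WT replicate 4 had 22.8 CPM in Syt2, where the other WT mice had 19.87 to 20.01, and 3.38 CPM near Hbb-bt, where the others had 2.56 to 2.62. C replicate 4 had 2.28 CPM at the same Hbb-bt peak, beside 1.26 to 1.37 in the other C mice. K replicate 2 had 3.91 CPM upstream of 5830416I19Rik, beside 5.50 to 5.81 in the other K mice.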

How the results depend on the processing

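Members called in C (2.68% of all) became 4.18% at an adjusted p of 0.05, 0 with the summed Y signal as a covariate, and 0.92% and 0.836% in libraries with and without Y-linked gene signal. In K (1.92%) they became 6.94% at 0.05, 3.26% with DESeq2, 1.17% with GC content bins and 1.003% with a fold change over 1.5. They were 1.17% with the Y signal and 0.753% in libraries with Y-linked gene signal. In CK (10.3%) they became 20.3% at 0.05, 6.19% with the fold change and 2.42% with the Y signal. In libraries with and without Y-linked gene signal the CK share was 2.68% and 3.51%. CK against K (0) gave 0.251% with DESeq2. Without Y-linked gene signal K had replicate 2 alone, so no share is given there for contrasts with K. With replicate number as a block, K gave 4.43% and CK against K 0.167%, and the block changed no other count of members by over 1.5 times. Over all peaks it moved the calls in C to 213, in K from 966 to 2146 and in CK from 4478 to 6607. The numbers name no shared litter or day in the labels. Deviations of same-numbered mice of different genotypes correlated at -0.02 to 0.19, over 0.1 in 6 of 24 pairs. A mouse's closest match in another genotype had its own number in 22 of 51 cases. CK replicate 5 had no mouse of its number to match, and the share that chance would give was not worked out. Whether mice of the same number share a source of variation was not tested. Leaving out each mouse gave 1.34% to 3.01% in C, 0.753% to 2.17% in K, 5.52% to 11.3% in CK and 0 to 0.167% in CK against K (2 members without K replicate 3, 1 without K replicate 4). The spread (0.208) was 0.197 with a prior count of 5 (0.190 over all peaks) and 0.154 at 2 CPM and above (0.149 over all peaks). It was 0.203 to 0.210 without single mice. The correlation of neighbours was 0.122 to 0.151 without single mice. The first-component share (27.7%) was 30.7% at 2 CPM and above (29.2% over all peaks). In runs of 15 and 60 peaks it was 35.5% and 22.7% (35.8% and 22.3% over all peaks). Without single mice it was 27.0% to 28.9%. The cause of these changes was not tested. At the 42 called pairs of named peak and contrast, calls were lost in 58 of 714 fits without a mouse and in 71 of 460 other settings and reversed in 0, and pairs not called gained a call in 64 of 3606. Depth limits peaks under about 1 CPM.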
